A study of Mus musculus with 6 samples.

Results

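Of the 516 genes in the table analysed here, 3 encode nuclear-encoded subunits of the oxidative phosphorylation machinery: Ndufa5 and Ndufb7 of respiratory complex I, and Atp5j2 of the ATP synthase. They were taken by gene name, and their values are FPKM (fragments relative to the length of the transcript and to all fragments mapped in a library) in each of 6 libraries. The Mtor CKO group had 3 libraries of ovulated metaphase II oocytes from C57BL/6 females with a conditional Mtor knockout driven by Zp3-Cre, whose promoter is active in growing oocytes. The WT group had 3 libraries of wild-type oocytes collected in the same way, and whether those females carried a floxed Mtor allele or Cre is not given in the labels. All females were primed at 22 days with 5 IU of PMSG and, 48 h later, with 5 IU of hCG, and each library pooled 5 oocytes taken from the oviduct 14 h after hCG. The labels give the age as postnatal day 24. They leave it unsaid whether separate mice were used for each library, so p-values cover only the spread among 6 pools, which may be technical.

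Complex I oxidises NADH, hands the electrons to ubiquinone and pumps protons across the inner mitochondrial membrane, and ATP synthase uses the returning protons to make ATP. The catalytic core of the chain is partly encoded by mitochondrial DNA, while the accessory subunits are made from nuclear genes and imported. The mature oocyte holds a large store of mitochondria and draws its ATP mainly from the oxidation of pyruvate. MTOR complex 1 is known from cultured cells to promote the translation of mRNAs for nuclear-encoded mitochondrial proteins, including subunits of complex I and ATP synthase. An RNA comparison such as this one measures transcript shares and not translation.

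All 516 rows had been selected by the depositors' own comparison for a difference between the genotypes, with an absolute log2 fold of at least 1.0006 and a p-value of at most 0.0099. The 3 subunits are therefore in the table because they differed in these libraries, and passing a further test on the same libraries is not independent evidence of a difference. Mtor is not among the rows, so the labels have no check from the targeted gene. Of 15 oocyte markers the rows include Zp2 and Nlrp5, whose sum was 234 to 253 FPKM for Mtor CKO libraries and 449.9 to 906 FPKM for WT libraries. Of 13 cumulus and granulosa markers they include Vcan and Mro, whose sum was 1.68 to 3.15 FPKM for Mtor CKO libraries and 4.50 to 9.86 FPKM for WT libraries. Vcan is at 0 in each Mtor CKO library and in WT replicate 3. The part of these markers in the results below was not tested. Each library is a pool of oocytes, so a change in every oocyte and a change in how many oocytes hold the transcript cannot be told apart. FPKM is a share of each library, so a higher FPKM need not mean more transcripts per oocyte. The read depth behind each value is unknown.

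The 3 genes lie on different chromosomes. Ndufa5 (ENSMUSG00000023089) occupies chr6:24518666-24528013 on the minus strand of mm10, Ndufb7 (ENSMUSG00000033938) occupies chr8:83566671-83571626 on the plus strand, and Atp5j2 (ENSMUSG00000038690, also named Atp5mf) occupies chr5:145183698-145192062 on the minus strand. The interval of each row overlaps 0 other annotated genes on either strand. The nearest protein-coding neighbours are Tecr, 71 bases from Ndufb7, and Asb15, 130 bases from Ndufa5, and neither is in the table. The rows of the 3 genes contain 0 transcript models assembled from the reads, whereas 310 of the 516 rows contain at least 1.

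The promoter windows of the 3 genes were searched for short motifs of factors known to act on respiratory genes, because all 3 transcripts had a higher mean in Mtor CKO. Sequences and start sites are from RefSeq, build GRCm38.p6, and each window ran from 250 bases before the start to 50 bases from it. The sites below are shown 5′ to 3′ on the strand of the gene, with the matching letters in capitals.
Ndufa5, chr6:24527697-24527726: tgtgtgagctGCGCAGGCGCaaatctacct
Ndufb7, chr8:83566726-83566755: agcctagatgacCCGGAAGacactgaaggg
Atp5j2, chr5:145191500-145191529: accaggacttcAAGATGGCgtcactcggtg

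Each gene held a different one of these motifs. Ndufa5 held a form of the site of NRF1 (nuclear respiratory factor 1), GCGCA and GCGC with any 1 base between them, at -26 to -17 from the start at 24527690, and the same bases lay in the window of its second start at 24527526. The motif occurs on either strand in 4.6% of 32851 mouse promoter windows of 300 bases. Ndufb7 held CCGGAAG, the core recognised by GABPA and other ETS factors, at -20 to -14, and 8.86% of the windows hold it. Atp5j2 held AAGATGGC, the core of a YY1 site, at 23 to 30 after the start, where it overlaps the annotated start codon, and 2.75% of the windows hold it. The perfect NRF1 palindrome, with T between GCGCA and GCGC, and the CREB site TGACGTCA were in 0 of the 4 windows of these genes (0.971% and 1.79% of all windows). Of the remaining motifs, GGGCGG (SP/KLF) was in both Ndufa5 windows, as the same bases, and in 35.7% of all windows. CCAAT (NFY) was in that of Atp5j2, at -250 to -246 on the opposite strand, and in 37.4% of all windows. TATAAA was in that of Ndufb7, at -235 to -230 on the opposite strand, and in 13.6% of all windows. These are matches of letters and do not show binding.

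On the deposited scaling Ndufa5 and Atp5j2 were about 2-fold higher in the Mtor CKO libraries, close to the least fold selected for. Ndufb7 had a higher mean that did not pass the test and whose size depended on 1 library. Ndufa5 is an accessory subunit of the matrix arm of complex I, in the part that delivers electrons to ubiquinone. Its level was 784, 469 and 730.1 FPKM in Mtor CKO replicates 1, 2 and 3, against 338, 273 and 333 FPKM in the WT replicates. Every Mtor CKO library was above every WT library, the closest pair being 469 and 338 FPKM. The means were 661 ± 168 FPKM for Mtor CKO and 315 ± 36.4 FPKM for WT (± SD of 3 libraries), a ratio of 2.1. On the log2(FPKM + 1) scale the difference was 1.04 (SE 0.35, limma adjusted p = 0.0397). In the authors' deposited table its log2 fold was 1.05 with q = 0.0143, beside 49.2% of all rows with a q of at most 0.05. Of the 122 rows higher in Mtor CKO 48 had such a q, which is 9.3% of all rows.

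Ndufb7 is an accessory subunit of the membrane arm of complex I, on its intermembrane space side. Its level was 18.3, 4.20 and 6.39 FPKM in Mtor CKO replicates 1, 2 and 3, against 4.27, 3.77 and 2.81 FPKM in the WT replicates. Mtor CKO replicate 1 was far above the other 5 libraries, and the groups overlapped, since Mtor CKO replicate 2 lay below WT replicate 1. The means were 9.64 ± 7.61 FPKM for Mtor CKO and 3.62 ± 0.740 FPKM for WT (± SD of 3 libraries). The log2 difference was 0.98 (SE 0.50) and did not pass the threshold (limma adjusted p = 0.0883). Without Mtor CKO replicate 1 it was 0.44 (adjusted p = 0.274), and without Mtor CKO replicate 2 it was 1.38 and passed (adjusted p = 0.0295).

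The authors' deposited table gives Ndufb7 the largest log2 fold of the 3 subunits, 1.69 (p = 0.00695, q = 0.153). That fold was taken between group FPKM values of 8.40 for Mtor CKO and 2.60 for WT, as deposited. The deposited WT group value was below each of the 3 WT libraries, as it was in 93 of the 516 rows. The row also combines transcript models of very different length, a spliced coding transcript of 623 nucleotides with 3 exons and a retained-intron transcript of 4435 nucleotides. Which of these the fragments came from is not given by the table.

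Atp5j2 encodes the f subunit of ATP synthase, a small membrane protein of its proton-conducting part. Its level was 43.2, 24.3 and 29.1 FPKM in Mtor CKO replicates 1, 2 and 3, against 20.7, 13.7 and 10.8 FPKM in the WT replicates. Every Mtor CKO library was above every WT library, but only narrowly between Mtor CKO replicate 2 and WT replicate 1. The means were 32.2 ± 9.85 FPKM for Mtor CKO and 15.1 ± 5.09 FPKM for WT (± SD of 3 libraries), a ratio of 2.14. The log2 difference was 1.05 (SE 0.39, limma adjusted p = 0.0417). In the authors' deposited table the log2 fold was 1.10 with q = 0.140, which is not below 0.05.

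**Figure D1:**
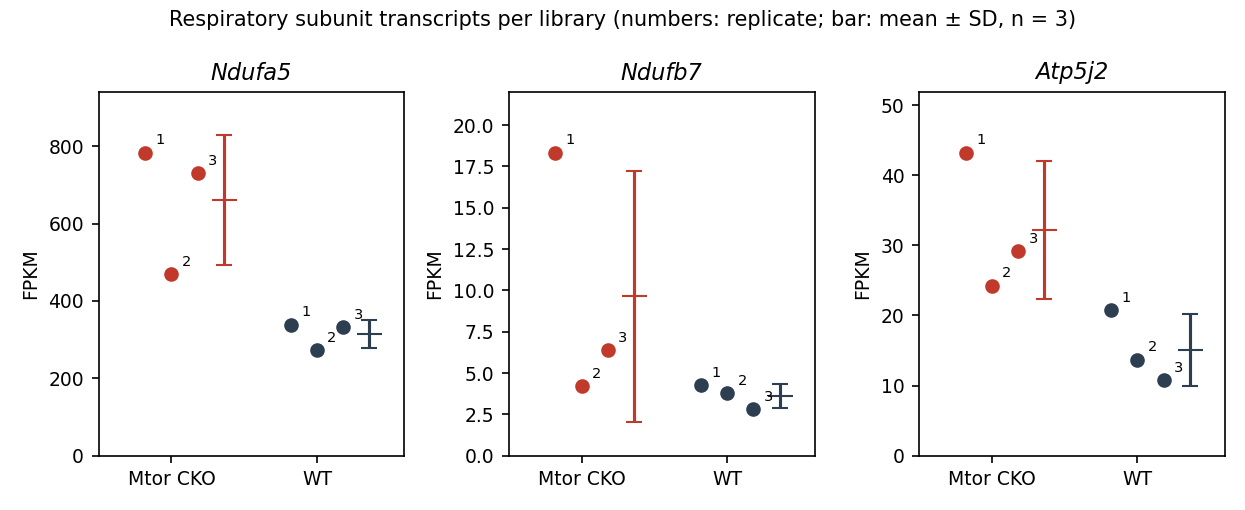
FPKM of Ndufa5, Ndufb7 and Atp5j2 in each library, with the replicate number beside each point and the mean ± SD (n = 3) beside each genotype; every axis starts at 0. The Mtor CKO libraries of Ndufa5 (469 to 784 FPKM) and Atp5j2 (24.3 to 43.2 FPKM) lie above all WT libraries, while those of Ndufb7 overlap WT apart from replicate 1 at 18.3 FPKM and replicate 3 at 6.39 FPKM.

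These counts have to be read against a table in which most rows pass. Limma called 347 of the 471 tested rows (73.7%), of which 63 (13.4% of tested rows) were higher in Mtor CKO and 284 (60.3%) lower. All 3 subunits were among the tested rows. Of the 3, 2 were called, both higher. Every Mtor CKO library was above every WT library in 2 of the 3 subunits and in 75 of the 516 rows (14.5%), while the reverse held in 0 of the 3 and in 57.4% of the rows. Because the selection of the rows used this same contrast, nothing about the subunits is read from these shares. The authors' deposited table lists all 3 as higher in Mtor CKO, a direction it gives to 23.6% of the rows.

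The calls of both subunits depended on single libraries. Ndufa5 stayed past the threshold without Mtor CKO replicate 2 (adjusted p = 0.0146) and not when any other library was left out (adjusted p from 0.0517 to 0.118), with log2 differences from 0.90 to 1.27. Atp5j2 stayed past it without Mtor CKO replicate 2 or WT replicate 1 (adjusted p = 0.0241 and 0.0442) and not without any of the other 4 libraries (adjusted p from 0.0994 to 0.120), with log2 differences from 0.83 to 1.29. Calls were lost across the whole table as well. The 63 higher calls became 2 without Mtor CKO replicate 1, 91 without Mtor CKO replicate 2 and 2 without Mtor CKO replicate 3. Dropping WT replicate 1 gave 37 higher calls, dropping WT replicate 2 gave 2, and dropping WT replicate 3 gave 1. Equalising the median of the libraries raised the log2 differences of Ndufa5, Ndufb7 and Atp5j2 to 1.79, 1.73 and 1.80, and the median of all tested rows to -0.28, against -1.03 as deposited. With that scaling 96.6% of the calls were higher, against 18.2% as deposited, and the share was 89.2% with upper quartile scaling. The direction of all 3 subunits was the same under each scaling. Both scalings were computed from the selected rows, most of them lower in Mtor CKO. They raised the 3 differences, so they could not have turned this direction.

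**Figure D2:**
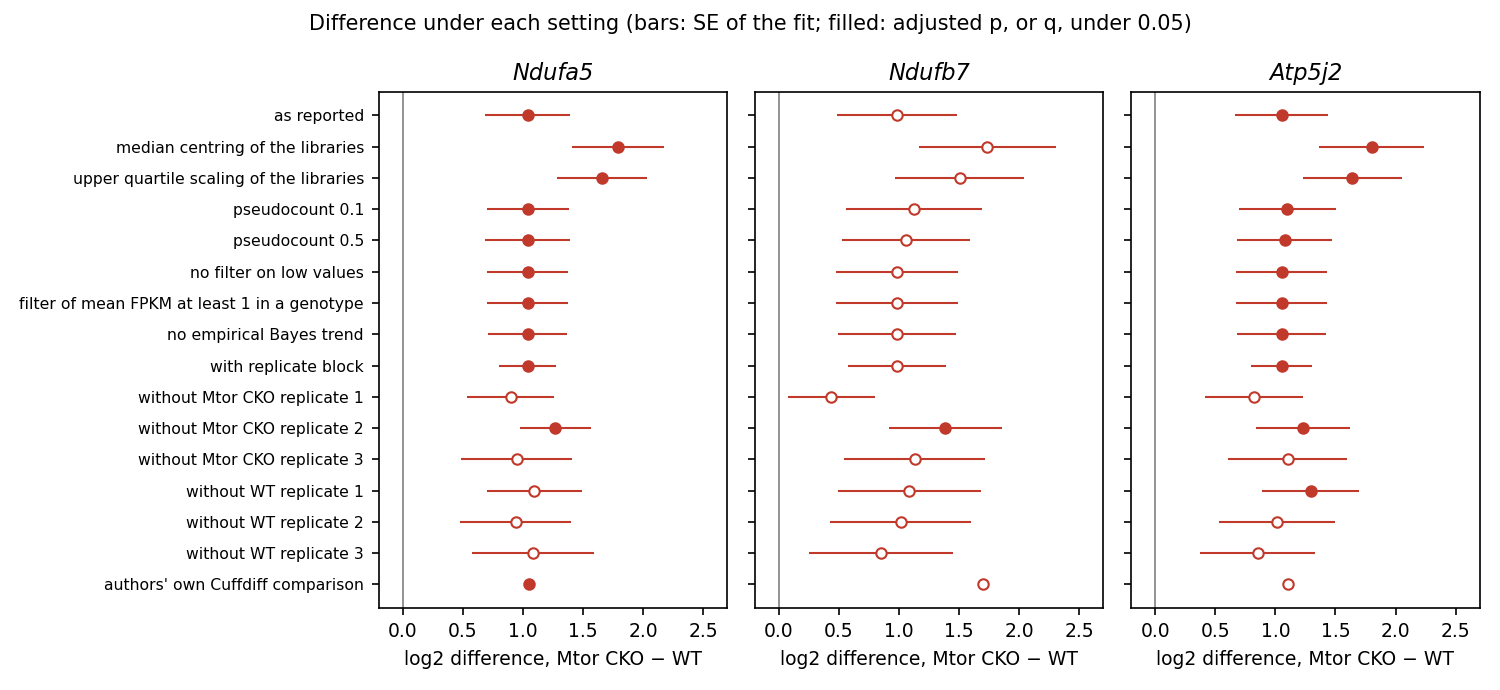
Log2 difference (Mtor CKO minus WT) of each subunit under every setting, with the SE of the fit as a bar and filled points where the adjusted p, or the authors' q, was under 0.05. The differences stay above 0 throughout, and the lowest is 0.44 for Ndufb7 without Mtor CKO replicate 1.

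The subunits differed far more in level than in log2 difference, whose least size was set by the selection of the rows. Ndufa5 was one of the most abundant transcripts of the table, ranking 2 of 516 by mean FPKM in Mtor CKO and 16 in WT. Atp5j2 ranked 81 in Mtor CKO and 185 in WT, and Ndufb7 ranked 180 in Mtor CKO and 380 in WT. FPKM is scaled by transcript length, but the row of each subunit combines transcript models of different length, which limits all 3 levels. The models run from 315 to 875 nucleotides for Ndufa5, 510 to 955 for Atp5j2 and 623 to 4435 for Ndufb7. The levels of Ndufb7 and Atp5j2 are also limited by the pseudogene copies of both genes. Ndufa5 stood 18.1, 19.3 and 25.1 times above Atp5j2 in the Mtor CKO replicates, against 16.3, 19.9 and 30.8 times in the WT replicates. It stood 42.8, 112 and 114 times above Ndufb7 in the Mtor CKO replicates, against 79.2, 72.3 and 118 times in the WT replicates. The order Ndufa5, Atp5j2, Ndufb7 held in all 6 libraries.

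The proportions of the 3 transcripts to each other gave no detectable difference between the genotypes. A ratio within a library does not depend on how that library was scaled. The log2 ratio of Ndufa5 to Atp5j2 averaged 4.37 ± 0.25 in Mtor CKO and 4.43 ± 0.47 in WT (SD, n = 3 each), and that of Ndufa5 to Ndufb7 averaged 6.35 ± 0.81 in Mtor CKO and 6.46 ± 0.38 in WT. The log2 ratio of Ndufb7 to Atp5j2 averaged -1.99 ± 0.67 in Mtor CKO and -2.03 ± 0.22 in WT. By two-sided exact permutation tests p was 0.8 for Ndufa5 to Ndufb7, 0.8 for Ndufa5 to Atp5j2 and 0.9 for Ndufb7 to Atp5j2, each 0.9 when adjusted over the 3 pairs. With 3 libraries against 3 such a test cannot go below 0.10, so these values do not show that the ratios were alike. The 3 rows were also selected for a difference in these libraries, so their ratios are not independent of that selection.

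Within the Mtor CKO group the 3 subunits ordered the libraries identically, with replicate 1 highest, replicate 3 next and replicate 2 lowest. The authors' deposited table lists 122 rows as higher in Mtor CKO. Of these, 58 had this order, and replicate 1 was the highest in 78. The rows lower in Mtor CKO tended the other way, with replicate 1 the lowest in 250 of 394 and replicate 2 the highest in 245. The median FPKM of the 122 rows was 17.6, 10.1 and 14.8 in Mtor CKO replicates 1, 2 and 3, against 5.21, 6.20 and 6.40 in the WT replicates. The median of the 394 rows was 2.47, 4.35 and 3.00 in the Mtor CKO replicates, against 7.77, 10.3 and 8.88 in the WT replicates. By these medians Mtor CKO replicate 2 was the Mtor CKO library nearest to WT on both sides of the table, and it was also the Mtor CKO library in which all 3 subunits were nearest to WT.

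For each subunit the 3 genes with the most similar profile were found by the root mean square distance over the 6 libraries, after each gene had been centred on its own mean of log2(FPKM + 1). Genes with provisional symbols were left out, which left 402 candidates for each. For Ndufa5 these were Sarnp, an mRNA export factor (distance 0.070), Olfm1, a secreted olfactomedin (0.074), and Med30, a Mediator subunit (0.16). Sarnp measured 285, 156 and 244 FPKM in the Mtor CKO replicates, against 123, 96.4 and 106 FPKM in the WT replicates. For Ndufb7 they were the ribosomal protein gene Rps20 (0.21), Nipal3 (0.32) and Arpc3, a subunit of the actin-nucleating ARP2/3 complex (0.32). For Atp5j2 they were Zar1l, a relative of the egg RNA-binding protein ZAR1 (0.10), Rps20 (0.18) and Pglyrp1, a peptidoglycan recognition protein (0.23).

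Neither of the other subunits was among the 3 genes nearest to any subunit. The distance was 0.29 between Ndufa5 and Atp5j2, 0.36 between Ndufb7 and Atp5j2, and 0.45 between Ndufa5 and Ndufb7. Rps20 measured 32.2, 12.2 and 16.8 FPKM in the Mtor CKO replicates, against 10.9, 7.59 and 6.93 FPKM in the WT replicates, with the same high replicate 1 as Ndufb7. Zar1l measured 36.4, 22.6 and 28.9 FPKM in the Mtor CKO replicates, against 18.8, 10.8 and 9.24 FPKM in the WT replicates, close to the levels of Atp5j2 in every library. These distances describe 6 libraries and share their depth and scaling, and similar profiles were searched for among rows already selected for a difference.

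**Figure D3:**
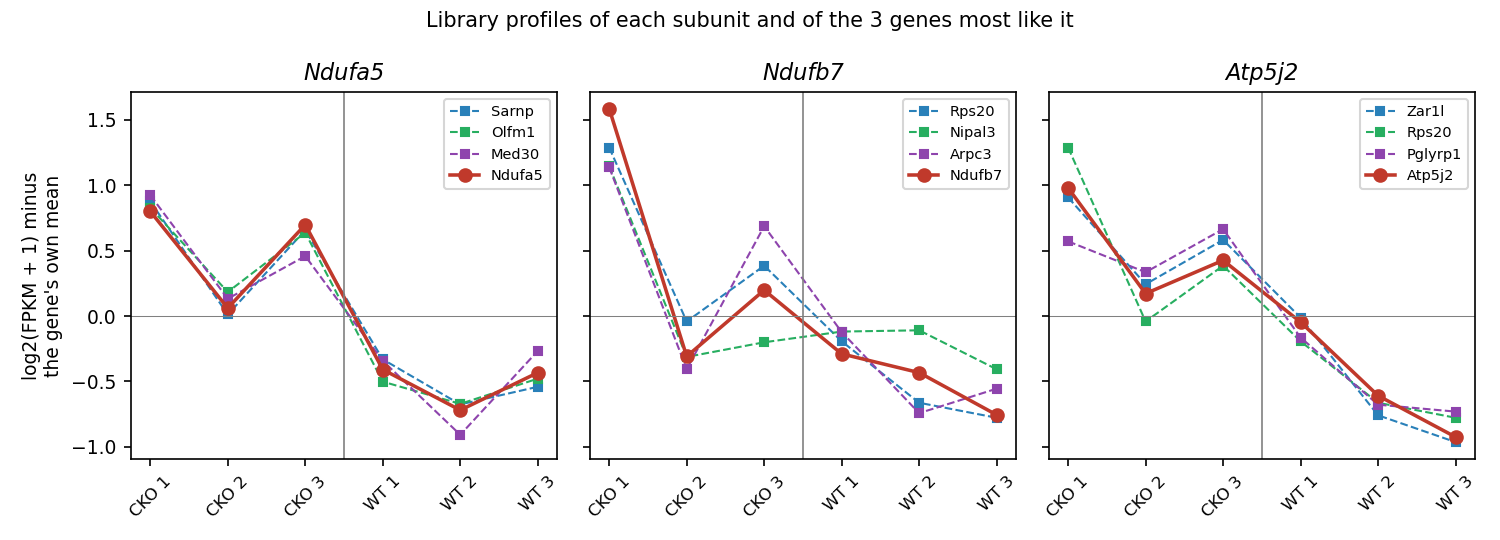
Profiles of each subunit (solid line) and of the 3 genes most like it (dashed lines) over the 6 libraries, as log2(FPKM + 1) minus the gene's own mean; the lines only join the points of a gene. In each panel the subunit has its highest value in Mtor CKO replicate 1, and the profile of Ndufa5 is the most closely matched (distance 0.070 to Sarnp).

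The 3 subunits are among the shortest transcripts of the table, and most of the other short genes were also listed as higher in Mtor CKO. The longest protein-coding transcript annotated by GENCODE has 623 nucleotides for Ndufb7, 875 for Ndufa5 and 955 for Atp5j2, which rank 5, 20 and 29 from the shortest among 469 genes with such a transcript. The median over these genes was 3095 nucleotides. By the authors' deposited table, 20 of the 26 other genes of up to 955 nucleotides (76.9%) were higher in Mtor CKO. The share was 48.3% of 29 genes above 955 and up to 1500 nucleotides, 19.6% of 51 genes up to 2000, 19.3% of 114 genes up to 3000, 14.8% of 142 genes up to 5000 and 16.3% of 104 longer genes. Among the 26 other short genes, 13 rose and 5 fell by limma, with a median log2 difference of 1.04, next to 1.04 for Ndufa5, 0.98 for Ndufb7 and 1.05 for Atp5j2. The median log2 difference was between -1.08 and -1.03 in each longer class. All rows had been selected for an absolute log2 fold of at least 1.0006. Sizes near that bound do not show a likeness of the subunits to the other short genes.

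The other short genes shared the order of the libraries seen in the subunits in part. Their median FPKM was 33.6, 20.3 and 29.6 in Mtor CKO replicates 1, 2 and 3, against 20.1, 10.6 and 13.5 in the WT replicates, and that of the longer genes was 3.11, 4.66 and 3.67 in the Mtor CKO replicates, against 6.58, 8.44 and 7.28 in the WT replicates. Mtor CKO replicate 1 was the highest Mtor CKO library in 20 of the 26 short genes and replicate 2 the lowest in 17, and 13 of the 26 had the order of all 3 subunits, replicate 1, then 3, then 2. Of the genes named for a similar profile, Sarnp (953 nucleotides), Zar1l (895), Arpc3 (899) and Pglyrp1 (694) were as short as the subunits, while Med30 had 1007, Olfm1 2757, Rps20 3706 in its longest annotated form and Nipal3 5153. The part of transcript length in the difference of the subunits was not tested.

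**Figure D4:**
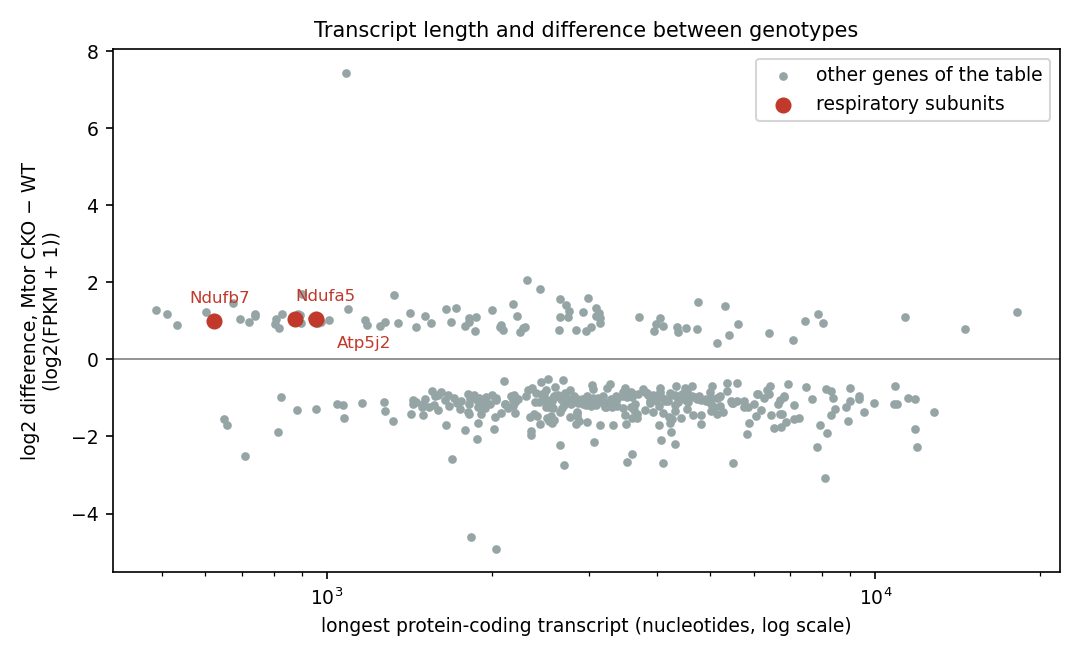
Log2 difference (Mtor CKO minus WT, log2(FPKM + 1) scale) against the length of the longest annotated protein-coding transcript on a log axis, for tested genes with such a transcript; large points are the 3 subunits. The subunits lie at 623 to 955 nucleotides with differences from 0.98 to 1.05, in the range of lengths where most genes lie above 0.

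The other subunits of the respiratory chain had no row in the table. The lists searched held 37 complex I, 4 complex II, 9 complex III, 20 complex IV and 18 ATP synthase subunits, 88 in all, and 2 complex I subunits and 1 ATP synthase subunit, the 3 described above, were the ones found. The 15 mitochondrially encoded genes and 19 transcriptional regulators of respiratory genes, among them Nrf1, Gabpa, Yy1 and Ppargc1a, had 0 rows. A gene with no row has no value here, so it is not known whether it differed less than the bounds of the table or was too low.

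The other mitochondrial genes lay in both directions, in shares near those of the whole table. Of 337 genes on the remaining lists, 10 were in the authors' deposited table, which lists 3 as higher and 7 as lower in Mtor CKO, beside 23.6% of all rows listed as higher. Of the 8 that entered the main fit, 1 rose and 5 fell, beside 13.4% and 60.3% of all tested rows. Their median log2 difference was -0.99, beside -1.03 for all tested rows. Mrpl55, a protein of the large mitochondrial ribosomal subunit, rose. Its level was 12.7, 8.61 and 7.17 FPKM in Mtor CKO replicates 1, 2 and 3, against 3.92, 5.89 and 2.48 FPKM in the WT replicates (log2 difference 1.06, limma adjusted p = 0.0424). Its call was kept without Mtor CKO replicate 2 and lost without any of the other 5 libraries (adjusted p from 0.0715 to 0.139), and its q in the authors' deposited table was 0.129. At 940 nucleotides it is also one of the short genes.

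Mrpl37, of the same ribosomal subunit, fell to 4.72 ± 2.48 FPKM in Mtor CKO, against 13.7 ± 1.15 FPKM in WT (± SD of 3 libraries), with a log2 difference of -1.45 and a limma adjusted p of 0.0362. Phb2, a prohibitin of the inner membrane, fell to 13.1 ± 3.11 FPKM in Mtor CKO, against 43.2 ± 14.8 FPKM in WT (log2 difference -1.60). Gfm2, which recycles mitochondrial ribosomes, and Grpel1, a co-chaperone of protein import, fell by 1.0 and 0.97 on the log2 scale. The row Ccdc109a, the older name of Mcu, the pore of the mitochondrial calcium uniporter, fell to 98.7 ± 37.2 FPKM in Mtor CKO, against 213 ± 77.7 FPKM in WT (log2 difference -1.12). With equal library medians the log2 differences were -0.70 for Mrpl37, -0.85 for Phb2, -0.25 for Gfm2, -0.22 for Grpel1 and -0.37 for Ccdc109a, and with equal upper quartiles they ran from -1.01 for Phb2 to -0.50 for Ccdc109a. None of the 5 passed the threshold with either scaling (adjusted p from 0.0830 to 0.611). All 5 also lost the call without Mtor CKO replicate 1, Mtor CKO replicate 3, WT replicate 2 or WT replicate 3 (adjusted p from 0.0843 to 0.149), Gfm2 lost it without WT replicate 1 (adjusted p = 0.0580), and Ccdc109a lost it without a filter on low values (adjusted p = 0.0504). In the authors' deposited table q was 0.0811 for Gfm2 and 0.117 for Grpel1.

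On the deposited scaling the remaining rows on these lists did not pass in the main fit or did not enter it. Slc25a3, the carrier that brings in phosphate for ATP synthase, had a log2 difference of -0.84 (limma adjusted p = 0.132). Rars2, the mitochondrial arginyl-tRNA synthetase, had one of 1.10 (adjusted p = 0.0582). Every Mtor CKO library of Rars2 was above every WT library, but only narrowly, the closest pair being 2.44 and 2.37 FPKM. Rars2 did not pass when any 1 library was left out (limma adjusted p from 0.0720 to 0.189). It passed with equal library medians (log2 difference 1.85, adjusted p = 0.0252) and not with equal upper quartiles (adjusted p = 0.0586). Rars2 also passed when the replicate number was added to the limma fit (adjusted p = 0.0244). Ndufaf6, an assembly factor of complex I, measured 0.361, 6.32 and 0.431 FPKM in the Mtor CKO replicates, against 0.619, 0.396 and 1.16 FPKM in the WT replicates, so its higher mean rested on Mtor CKO replicate 2, the library in which the 3 subunits were lowest among Mtor CKO. Pdp2, a phosphatase that activates pyruvate dehydrogenase, measured 0.0340, 0.750 and 0.172 FPKM in the Mtor CKO replicates, against 0.445, 2.87 and 1.48 FPKM in the WT replicates. Both were below the filter of the main fit.

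The annotation columns of the table gave a broader view, chosen after the values had been seen and given without a test. They assign 43 rows to the mitochondrion, and of these 13 were higher and 30 lower by the sign of the fold in the authors' deposited table. Without the 3 subunits 10 of 40 (25%) were higher, beside 23.6% of all rows. By length, 2 of 2 such genes of up to 955 nucleotides were higher, 4 of 9 between that length and 2000 nucleotides, and 4 of 29 above 2000. Of the 10 rows assigned to the inner membrane 4 were higher, namely the 3 subunits and Ndufaf6.

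**Figure D5:**
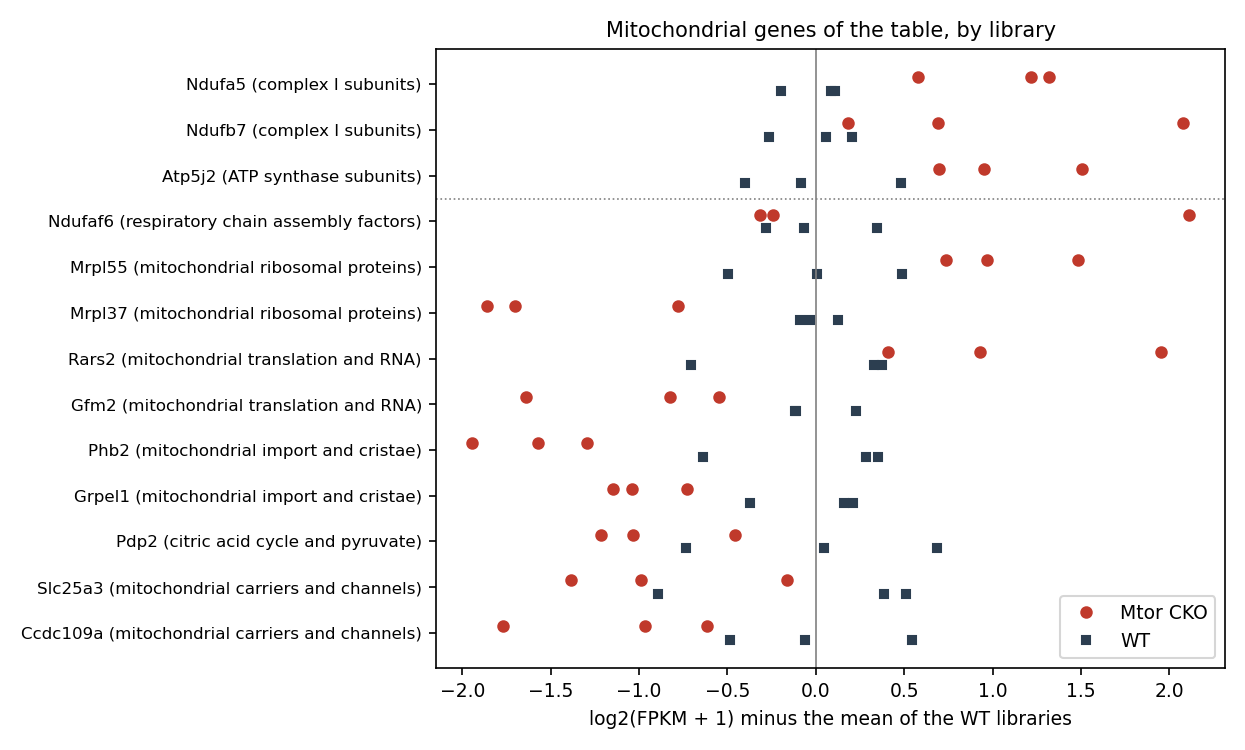
The 3 subunits (above the dotted line) and the 10 other mitochondrial genes on the lists, with each library shown as log2(FPKM + 1) minus the mean of the WT libraries (circles Mtor CKO, squares WT). The subunits, Mrpl55 and Rars2 lie to the right of 0 in all Mtor CKO libraries, Ndufaf6 does so in replicate 2 alone, and 7 genes have all Mtor CKO libraries to the left of 0.

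Annotated copies of 2 of these genes leave part of their values uncertain, and sequence outside annotated transcripts was not searched. Among annotated transcripts of other genes, Ndufa5 had 0 matches of at least 200 nucleotides at 90% identity or more. Ndufb7 had 1, the processed pseudogene Gm13171 (91.1% identity over 381 nucleotides), and Atp5j2 had 2, the processed pseudogenes Gm13352 and Gm6581 (93.2% over 265 and 93.9% over 264 nucleotides). None of these 3 pseudogenes is in the table, and how the depositors assigned fragments that match both places is not given in the sources used here.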

How the data were processed

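RNA of 3 Mtor CKO and 3 WT libraries, amplified by 17 cycles of PCR per the labels' protocols, was deposited as 1 table of selected genes. The FPKM values per library and per genotype, the log2 fold changes and the p-values and q-values were made by the authors with TopHat2 2.0.8b, Cufflinks 2.1.1 and Cuffdiff on mm10, per the submitters' processing notes. The fold column is headed WT against CKO, but in 513 of 516 rows it equalled the log2 of Mtor CKO over WT group FPKM within 0.001. The values give no read counts, so depth and counting error are unknown.

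The 471 rows with at least 1 FPKM in at least 3 libraries entered limma 3.58.1 (R 4.3.3) as log2(FPKM + 1), with an empirical Bayes trend and no block, and p was adjusted over these rows by Benjamini-Hochberg at 0.05. Adding 1 makes differences of weakly expressed genes smaller. Alternatives were 2 scalings, pseudocounts of 0.1 and 0.5, 2 filters, no trend, a replicate block, each library left out and the authors' own comparison. Named genes were the subunits, the 3 genes most like each, and all rows on the mitochondrial lists, matched by symbol or Entrez identifier. Members and lists were chosen with earlier results of these data known. Table starts were shifted by 1 base to match the annotation. Protein sequences were not used here.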

Additional observations from a re-analysis of the deposited data

How the results depend on the processing

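All 3 subunits kept a positive log2 difference under every setting run. Because their rows were selected for a difference in these libraries, a kept direction is not independent evidence for it. Leaving out 1 library gave log2 differences from 0.90 to 1.27 for Ndufa5, 0.44 to 1.38 for Ndufb7 and 0.83 to 1.29 for Atp5j2, and counts of 1 to 91 higher and 1 to 298 lower genes. The log2 fold of Atp5j2 in the authors' deposited table was 1.10, with a q above 0.05. The count of lower genes was 3 with equal library medians and 8 with equal upper quartiles, against 284 as deposited. Both scalings were computed from the selected rows alone. With 1 added to both values, the difference in log2 ratio turned from -0.10 to 0.056 for Ndufa5 to Ndufb7, and from 0.041 to -0.069 for Ndufb7 to Atp5j2. Leaving out 1 library moved these differences between -0.35 and 0.36, and -0.33 and 0.31, and that of Ndufa5 to Atp5j2, -0.062, between -0.26 and 0.19. The log2 difference of Nipal3 was between -0.045 (without Mtor CKO replicate 1) and 0.68 when 1 library was left out. Among the other settings it was between 0.42 and 1.30, the latter in the authors' deposited table. The cause of the change in sign was not tested. Libraries of the same number deviated together with correlations of 0.115, 0.240 and 0.0843, and 4 of 6 libraries correlated best with their own number in the other genotype. The labels do not say that the numbers pair the libraries, so they were not taken as pairs in the main fit. With the replicate block the adjusted p was 0.0193 for Ndufa5, 0.0621 for Ndufb7 and 0.0203 for Atp5j2, with 79 higher and 326 lower genes, and Rars2 and Arpc3 passed (adjusted p = 0.0244 and 0.0286). The replicate block cannot change the mean log2 ratios of -0.10, -0.062 and 0.041. Ndufaf6 and Pdp2 were below the filter and have no test. Of 240 values of the other 16 named genes under alternatives, 163 kept direction and side of the threshold, 71 lost the call, 5 gained it and 1 changed sign.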
